A study of Mus musculus with 8 samples.

Results

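The enzymes that write, copy and remove DNA methylation were followed in Thy1-positive testis cells of mouse pups, measured on 8 one-colour microarrays. The 9 genes were Dnmt1, Uhrf1, Dnmt3a, Dnmt3b, Dnmt3l, Tet1, Tet2, Tet3 and Tdg, chosen by name, and every probe whose RefSeq accession belongs to one of them was used. They had 16 probes of 41174 on the array, and all 16 were kept among the 36429 probes that passed the filter on dim signal. As genes they were 9 of 17513. 4 arrays came from wild type (WT) pups and 4 from pups labelled Glis3KO2, both of the C57BL/6 strain, at postnatal day 4 and untreated. The cells carry the label of testis spermatogonial progenitors and were isolated by Thy1, a surface protein used to enrich these cells. Glis3 encodes a Krüppel-like zinc finger protein that binds DNA and acts on transcription. The sources used here do not give how the Glis3KO2 allele was made or in which cells it acts. The design text names 3 testes per genotype and the labels list 4 samples, and nothing says that each came from its own animal, so the p-values cover only the spread among the samples, and part of it may be technical.

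DNA methylation sits mostly on cytosines that are followed by guanine (CpG). Dnmt1 copies the mark onto the new strand after replication, and Uhrf1 brings it to sites where only the old strand is methylated. Dnmt3a and Dnmt3b set new methylation, and Dnmt3l, which has no catalytic activity of its own, assists them. The Tet enzymes oxidise methylcytosine, and Tdg cuts out the oxidised bases so that repair can replace them. Male germ cells lose most of their methylation as primordial germ cells and regain it as prospermatogonia around birth, when Dnmt3l is needed, so pups of this age hold germ cells that have lately passed through that phase.

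Of the 9 genes, Dnmt1 and Uhrf1 moved most alike over the 8 arrays, and their promoters are shown because they alone among the members held the same letters. RefSeq promoter windows (GRCm38.p6, 250 bases before a start) were available for all 9 genes, 16 windows in all. They were searched on both strands for TTTCCCGC, TTTGGCGC and TTTCGCGC, which match the E2F motif of cell cycle factors, for the GC box GGGCGG, for CCAAT and for TGGGGGGT, a core of the GLIS motif. The third start of Dnmt1 and the second start of Uhrf1 held TTTCGCGC, which is in capitals in the 48 bases shown, and which Dnmt1 carries on the opposite strand:
Dnmt1, chr9:20952815-20952862, minus strand: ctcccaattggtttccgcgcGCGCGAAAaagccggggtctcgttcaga
Uhrf1, chr17:56304108-56304155, plus strand: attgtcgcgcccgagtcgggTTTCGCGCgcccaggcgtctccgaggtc

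The match lay 219 bases before the third Dnmt1 start and 185 bases before the second Uhrf1 start, and neither overlapped another motif searched. Both windows lie downstream of an earlier listed start of the same gene, so they may take in transcribed sequence. Which start these cells use is not known here, so the 2 distances cannot be set against each other. TTTCGCGC was in 0.256% of all 32851 promoter windows of this length, and any of the 3 E2F sequences was in 1.53%, against 2 of the 16 member windows. GGGCGG was in 11 of the 16 windows and in 32.7% of all windows, and CCAAT in 6 of the 16 and in 33.8% of all. TGGGGGGT was in 0 of the 16 windows and in 1.36% of all, which says only that these letters are not in these windows. A match is a description of the sequence, not a site or a cause.

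CpG content set the members' windows apart from each other. The Tet2 window held 51 CpG, against a median of 6 over all windows, and is printed with no capitals as the richest of the members:
Tet2, chr3:133544391-133544640, minus strand: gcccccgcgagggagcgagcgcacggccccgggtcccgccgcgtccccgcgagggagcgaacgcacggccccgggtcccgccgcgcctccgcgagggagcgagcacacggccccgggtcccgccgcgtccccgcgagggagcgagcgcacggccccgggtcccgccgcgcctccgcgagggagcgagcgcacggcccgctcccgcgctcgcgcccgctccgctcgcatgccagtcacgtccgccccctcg

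The Dnmt3l windows held 5, 4 and 3 CpG, near the median of all windows. The windows of Dnmt1 ranged from 2 CpG at the first start to 26 at the third, and the Uhrf1 window shown in part held 30. Dnmt3b had 21, Tdg 19, Tet3 17 and Tet1 15, and Dnmt3a had 38, 40 and 15. Methylation itself was not measured on these arrays.

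Signals are given as log2 of the processed intensity minus that of the array's 75th percentile, so 0 is the 75th percentile of an array, and differences are Glis3KO2 minus WT. A probe's level is set only against the same probe on other arrays. The 75th percentile was 355, 533, 243 and 272 intensity units in WT replicates 1 to 4, and 374, 458, 251 and 341 in Glis3KO2. Between 86.0% and 90.3% of spots were well above background. WT replicates 3 and 4 stood apart from the other 6 arrays on the first principal component (28.6% of the variance), at 102 and 82.3 against at most 10.9. At the other end was Glis3KO2 replicate 2, at -81.5, with WT replicate 2 next at -44.2. A member probe, named gene or list median that moved by over 1.5 times without WT replicates 3 and 4, or changed sign, is given with and without them. This was a choice made after seeing the data. The median of all genes was -0.084 with WT replicates 3 and 4 and -0.031 without. WT replicate 1 stood apart on the second component (19.9% of the variance), at 125 against at most 0.95. It also had the highest centred mean of the Leydig list (1.52) and of the endothelial list (0.86), whose part in the results was not tested. With WT replicate 1 left out, 5 member probes moved by over 1.5 times: Dnmt3a probe 2 to -0.0082, Dnmt3b to -0.29, Dnmt3l to -0.11, Tet3 probe 2 to 0.48 and Tdg probe 1 to -0.067. So did 7 genes named below, Pcna (-0.18), Hells (-0.86), Uhrf2 (-0.050), Morc1 (-1.57), Apex1 (-0.42), Mat2a (0.027) and Dazl (-0.67). Slide 1 held replicates 1 and 3 of each genotype, and slide 2 held the others. WT arrays were always at positions 1 and 2 and Glis3KO2 arrays at positions 3 and 4, so position and genotype cannot be told apart. Glis3 itself was lower in Glis3KO2 by a mean of -1.43 (SE 0.45, limma adjusted p = 0.695), with no overlap of the groups, and by -0.62 without WT replicates 3 and 4. The position of its probe relative to whatever was changed in the allele is unknown here, and the probe may therefore be no check of the labels. Thy1, the protein of the isolation, had a mean difference of 0.65 (SE 0.44, limma adjusted p = 0.713), which was 0.077 without those 2 arrays.

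Across the enzymes, the question was whether their signal differed between the genotypes. The genes that copy methylation, Dnmt1 and Uhrf1, had lower means in Glis3KO2, the 3 de novo genes had lower means at their brightest probes, and Tet1, Tet2, Tet3 and Tdg had higher means. With another background correction, normexp followed by the 75th percentile, Dnmt3a turned higher (0.12) and Tdg lower (-0.051), and the other 7 genes kept these directions. None of these differences passed the test. Over all 36429 probes limma called 0 at a Benjamini-Hochberg adjusted p under 0.05 (0.00%), and over 17513 genes it called 0 (0.00%), with 2332 probes (6.40%) and 1208 genes (6.90%) at an unadjusted p under 0.05. The lowest adjusted p of a member probe was 0.758 with limma. With the replicate number as a block, 1880 genes had an unadjusted p under 0.05 and 0 were called. At an unadjusted p under 0.05 were 2 of the 16 member probes (12.5%), for Dnmt1 and Uhrf1, both lower, the direction of 3.90% of all probes. The 2 groups did not overlap at 3 of the 16 member probes (18.8%), against 3.31% of all probes. Means were lower at 6 of the 16 member probes (37.5%), against 56.8% of all probes, and in 5 of the 9 genes (55.6%), against 59.2% of all genes. Under normexp with that scaling, 7 of the 16 member probes and 72.1% of all probes had lower means. The share of genes was near that of all genes, and the median difference was -0.14 over the 9 genes and 0.11 over their 16 probes, against -0.084 over all genes and -0.064 over all probes.

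**Figure D1:**
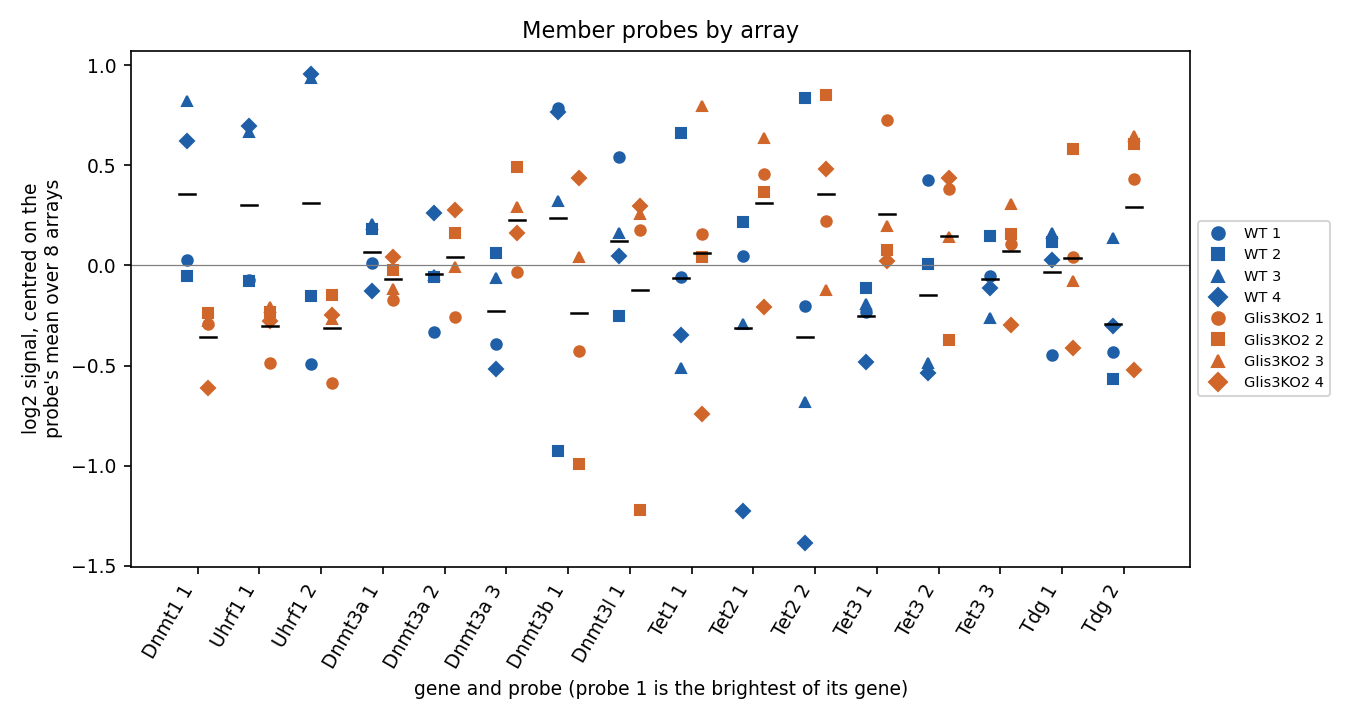
Log2 signal of the 16 member probes on each of the 8 arrays, each probe centred on its mean over the arrays; colour gives the genotype, shape the replicate number and the bar the group mean. WT replicates 3 and 4 lie well above the other 6 arrays at Dnmt1 and at both Uhrf1 probes, and the groups do not overlap at Dnmt1, Uhrf1 probe 1 and Tet3 probe 1.

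Dnmt1, the maintenance methyltransferase, had the largest difference of the members after one Tet2 probe. Its log2 signal in WT replicates 1 to 4 was -0.10, -0.18, 0.69 and 0.49, and in Glis3KO2 -0.42, -0.37, -0.41 and -0.74. Every Glis3KO2 array lay below every WT array, with WT replicates 3 and 4 high and replicates 1 and 2 close to the Glis3KO2 range. The WT mean was 0.23 ± 0.43 and the Glis3KO2 mean -0.48 ± 0.17 (SD, n = 4 each). The difference was -0.71 (SE 0.27, 95% interval -1.31 to -0.11), a 1.64-fold lower signal, and did not pass over all probes (limma adjusted p = 0.758). It was -0.71 within each slide, but -0.25 among replicates 1 and 2 and -1.17 among replicates 3 and 4. Without WT replicates 3 and 4 it was -0.34.

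Uhrf1, the partner that guides Dnmt1, was read by 2 probes. At probe 1, the brighter, WT replicates 1 to 4 had 3.99, 3.98, 4.72 and 4.75, and Glis3KO2 replicates 3.57, 3.83, 3.85 and 3.78. The order was that of Dnmt1: 2 high WT arrays, 2 WT arrays just above the Glis3KO2 arrays, and no overlap. The difference was -0.60 (SE 0.26, 95% interval -1.19 to -0.015, limma adjusted p = 0.758), a 1.52-fold lower signal. It was -0.64 within slide 1 and -0.56 within slide 2, and -0.23 without WT replicates 3 and 4. Probe 2 had 0.48, 0.82, 1.91 and 1.93 in WT and 0.39, 0.83, 0.71 and 0.73 in Glis3KO2. Here the groups overlapped, since WT replicates 1 and 2 lay within or near the Glis3KO2 range. Its difference of -0.62 (SE 0.36, 95% interval -1.42 to 0.18, limma adjusted p = 0.761) was of the size of that at probe 1, and it was 0.010 without WT replicates 3 and 4.

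With each gene centred on its own mean, Dnmt1 and Uhrf1 differed by 0.12 log2 units on average over the 8 arrays, the smallest distance among the 36 pairs of members. The next pair, Dnmt3a and Tdg, was at 0.26, and the 2 Uhrf1 probes differed by 0.16. Among all 17513 genes, leaving out provisional symbols, the 2 most like Dnmt1 by this measure were Gatad2a, a subunit of the NuRD complex, at 0.094 and Suv39h1, a histone H3 lysine methyltransferase of heterochromatin, at 0.099. Those most like Uhrf1 were Hyou1, a chaperone of the endoplasmic reticulum, at 0.076 and Rest, a repressor of neuronal genes, at 0.081. These distances take in the genotypes, so the 4 genes also had lower means in Glis3KO2, by -0.57, -0.61, -0.69 and -0.65.

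Proliferation and germ cell genes were also high in WT replicates 3 and 4. The mean of 13 measured proliferation genes, centred per gene, was -0.45, -0.18, 0.43 and 0.57 in WT replicates 1 to 4 and between -0.14 and -0.07 in Glis3KO2. In WT replicates 1 and 2 it thus lay below every Glis3KO2 array, unlike Dnmt1 and Uhrf1 probe 1, which lay above. Of these genes 10 had lower and 3 higher means (7 and 6 with normexp and the 75th percentile), with a median of -0.17, and limma called 0. Without WT replicates 3 and 4 the split was 3 lower and 10 higher, with a median of 0.16. The germ cell list had lower means for 12 of its 12 genes, with a median of -1.08 and 0 called. Without WT replicates 3 and 4 the list had 9 lower and 3 higher, with a median of -0.15. Its centred mean was -0.28, -0.10, 0.88 and 1.40 in WT and -0.56, -0.87, -0.21 and -0.25 in Glis3KO2, and its summed level, in units of each array's 75th percentile, ranged from 27.4 to 109 in WT and from 25.0 to 43.7 in Glis3KO2. The 2 WT arrays that were high for Dnmt1 and Uhrf1 were thus also the highest for germ cell and proliferation genes; the part of either in the result was not tested. In RNA from mixed cells, fewer cells of a type and less RNA per cell cannot be told apart.

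**Figure D2:**
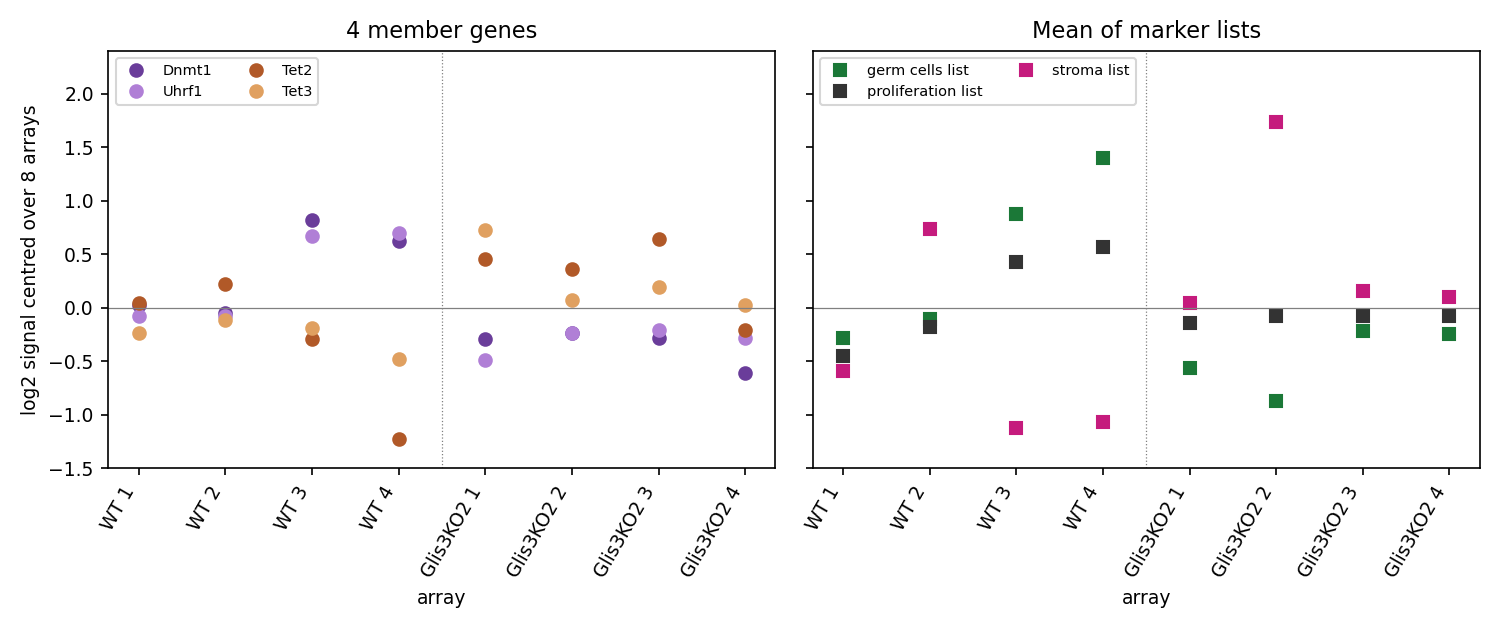
Left, log2 signal of Dnmt1, Uhrf1, Tet2 and Tet3 on each array, each at its brightest probe and centred over the 8 arrays. Right, the mean of the centred values of the germ cell, proliferation and stroma lists on the same scale; WT replicates 3 and 4 are highest for Dnmt1, Uhrf1, germ cell and proliferation genes and lowest for stroma genes.

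The de novo enzymes gave no difference that passed, and their probes did not share a direction. Dnmt3a, a de novo methyltransferase that germ cells need for imprints, was read by 3 probes. Probe 1 had 3.92, 4.08, 4.11 and 3.78 in WT and 3.73, 3.88, 3.78 and 3.95 in Glis3KO2. The groups overlapped within a narrow band, with a difference of -0.14 (SE 0.21, 95% interval -0.60 to 0.33, limma adjusted p = 0.891). Probe 3, which RefSeq gives the same transcript as probe 1, had 0.97, 1.43, 1.31 and 0.85 in WT and 1.33, 1.86, 1.66 and 1.53 in Glis3KO2. It was higher in Glis3KO2 in 4 of 4 same-numbered pairs, although the groups overlapped at Glis3KO2 replicate 1. Its difference was 0.46 (SE 0.24, 95% interval -0.077 to 0.99, limma adjusted p = 0.758), 0.40 when WT replicates 3 and 4 were left out. Probe 2, of another transcript, had a difference of 0.088 (SE 0.24, 95% interval -0.44 to 0.61) with overlapping groups, and 0.24 without WT replicates 3 and 4. The difference between the probes of Dnmt3a was not tested, and the part of the transcript that each reads was not known.

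Dnmt3b, the other de novo methyltransferase, varied more between replicates than between genotypes. Its values were 1.82, 0.10, 1.35 and 1.80 in WT and 0.60, 0.038, 1.07 and 1.47 in Glis3KO2. Replicate 2 was the lowest array of both genotypes. The difference was -0.47 (SE 0.44, 95% interval -1.46 to 0.51, limma adjusted p = 0.822), lower in 4 of 4 pairs, with -1.21 in pair 1 and -0.066 to -0.33 in the other pairs. Its size rested on single arrays: it was -0.22 without Glis3KO2 replicate 2, -0.29 without WT replicate 1, -0.30 without WT replicate 4 and -0.86 without WT replicate 2. Leaving out WT replicates 3 and 4 gave -0.16.

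Dnmt3l, the cofactor of de novo methylation in prospermatogonia, had -0.85, -1.64, -1.22 and -1.34 in WT and -1.21, -2.61, -1.13 and -1.09 in Glis3KO2. Replicate 2 was again the lowest of each genotype, and the other 3 Glis3KO2 arrays lay within the WT range. The difference of -0.25 (SE 0.37, 95% interval -1.07 to 0.58, limma adjusted p = 0.889) was 0.12 without Glis3KO2 replicate 2, so its sign rested on that array. On the stroma list, Glis3KO2 replicate 2 was the highest array of all, with a centred mean of 1.74, and WT replicate 2 the highest WT array, at 0.73; the part of this in the Dnmt3b and Dnmt3l values was not tested.

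The enzymes that remove methylation had higher means in Glis3KO2 at all 8 of their probes, except that Tet3 probe 3 and Tdg probe 1 turned to -0.58 and -0.051 with normexp and the 75th percentile, and none passed. Tet3, which oxidises methylcytosine in many tissues and in the zygote, was the one with separate groups. At its probe 1 WT replicates 1 to 4 had 2.80, 2.92, 2.84 and 2.55, and Glis3KO2 replicates 3.76, 3.11, 3.23 and 3.05. All 4 Glis3KO2 arrays lay above all WT arrays, with Glis3KO2 replicate 1 the furthest. The WT mean was 2.78 ± 0.16 and the Glis3KO2 mean 3.29 ± 0.32 (SD, n = 4 each). The difference was 0.51 (SE 0.24, 95% interval -0.028 to 1.05, limma adjusted p = 0.758), a 1.42-fold higher signal. It was 0.67 within slide 1, 0.35 within slide 2 and 0.43 without WT replicates 3 and 4. The other Tet3 probes had overlapping groups, with differences of 0.29 (SE 0.30) at probe 2 and 0.14 (SE 0.23) at probe 3. Probe 3 was the dimmest member probe, at 16.0 to 46.6 intensity units, so its value is more open to the background correction. Probe 2 turned to -0.070 without WT replicates 3 and 4, and probe 3 was then 0.021.

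Tet2, a Tet enzyme widely studied in blood stem cells, had higher means at both probes. Probe 1 had 2.34, 2.51, 2.0 and 1.06 in WT and 2.74, 2.66, 2.93 and 2.08 in Glis3KO2. It was higher in Glis3KO2 in 4 of 4 pairs, with an overlap that came from Glis3KO2 replicate 4, and WT replicate 4 was the lowest array. The difference was 0.63 (SE 0.35, 95% interval -0.15 to 1.40, limma adjusted p = 0.761), 0.32 without WT replicate 4 and 0.18 without WT replicates 3 and 4. Probe 2 had -0.092, 0.95, -0.57 and -1.27 in WT and 0.34, 0.96, -0.0092 and 0.59 in Glis3KO2. Its difference of 0.72 (SE 0.44, 95% interval -0.27 to 1.71, limma adjusted p = 0.761) was 0.042 without WT replicates 3 and 4. WT replicates 3 and 4, low for Tet2, were also low for the stroma list, whose centred mean was -0.59, 0.73, -1.12 and -1.07 in WT and 0.04, 1.74, 0.16 and 0.10 in Glis3KO2. All 10 stroma genes had higher means (9 with normexp and the 75th percentile), with a median of 1.0 and 0 called, which was 0.39 without WT replicates 3 and 4, and their summed level ranged from 43.7 to 176 in WT and from 107 to 355 in Glis3KO2. Its part in the Tet2 values was not tested.

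Tet1, the Tet enzyme known from primordial germ cells and embryonic stem cells, had 1.04, 1.76, 0.58 and 0.75 in WT and 1.25, 1.14, 1.90 and 0.36 in Glis3KO2. The groups overlapped throughout, with a difference of 0.13 (SE 0.37, 95% interval -0.71 to 0.96, limma adjusted p = 0.952). It had opposite signs on the slides, 0.76 on slide 1 and -0.51 on slide 2, and was -0.24 without WT replicates 3 and 4. The interval allows a change of either sign that is larger than the difference of 0.51 at Tet3 probe 1.

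Tdg, the glycosylase that excises oxidised methylcytosine, was read by 2 probes of different RefSeq transcripts. Probe 1 had a difference of 0.070 (SE 0.28, 95% interval -0.55 to 0.69), and 0.20 without WT replicates 3 and 4. Probe 2 had -1.03, -1.16, -0.46 and -0.89 in WT and -0.16, 0.013, 0.052 and -1.11 in Glis3KO2. Glis3KO2 replicates 1 to 3 lay above every WT array and replicate 4 lay among the lowest. Its difference was 0.58 (SE 0.31, 95% interval -0.12 to 1.28, limma adjusted p = 0.758), and 0.85 without Glis3KO2 replicate 4. The difference between the Tdg probes was not tested.

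**Figure D3:**
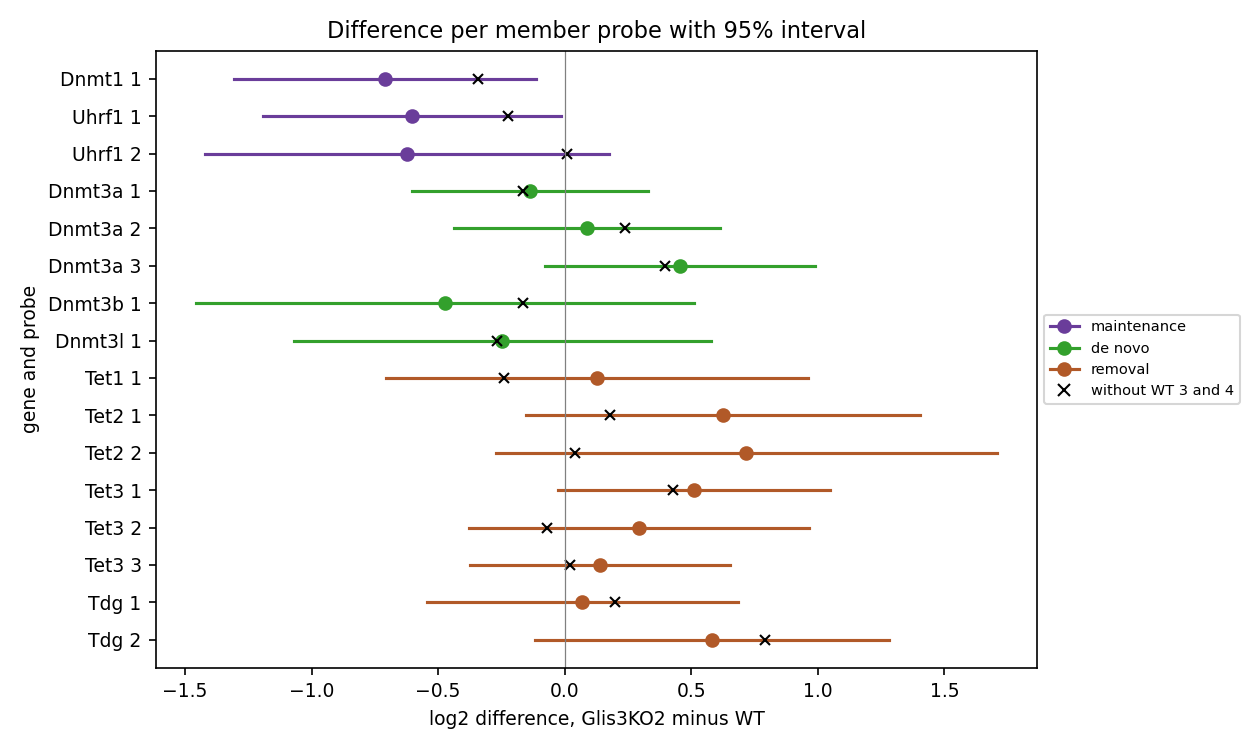
Log2 difference (Glis3KO2 minus WT) of each member probe with its 95% interval from the limma fit on 8 arrays, coloured by role; crosses give the difference without WT replicates 3 and 4. Only the intervals of Dnmt1 and Uhrf1 probe 1 exclude 0, and the crosses of Dnmt1, Uhrf1 and Tet2 lie nearer to 0 than the points.

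Over the members, the arrays did not order the genes in one way. Tet2 and Tet3 differed by 0.34 log2 units on average after centring, and Dnmt3b and Tet2 by 0.996, the largest distance of the 36 pairs. The genes most like Tet2 were Tns1, a focal adhesion protein, at 0.12 and Lman2, a cargo receptor of the secretory pathway, at 0.13. Those most like Tet3 were Zmpste24, the protease that matures lamin A, at 0.10 and Zfp300 at 0.11. For Dnmt3a they were Ncdn and Gdf7, at 0.030 and 0.071, and for Tdg Polr3gl and Pcbp1, at 0.078 and 0.085. The nearest genes of the more variable members were further off: Brap and Ttll9 for Dnmt3b at 0.16 and 0.19, Arhgef5 and Chpf2 for Tet1 at 0.17 each, and Fbxw13 and Olfr323 for Dnmt3l at 0.12 each. A gene that varies little has near neighbours by this measure, so these distances do not rank the likeness of one member's neighbours against another's.

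Genes that work with the enzymes were described by lists, in each of which limma called 0 genes. The 5 maintenance partners all had lower means, with a median of -0.12 against -0.084 over all genes, but 3 of the 5 were higher with normexp and the 75th percentile and 3 of the 5 without WT replicates 3 and 4. Among them Hells, a chromatin remodeller needed for methylation of repeats, had -0.50 (SE 0.38), which became 0.097 without WT replicates 3 and 4. Pcna, the replication clamp that Dnmt1 binds, had -0.094 (SE 0.25), and Uhrf2, the relative of Uhrf1, -0.12 (SE 0.26). Each of the 3 had overlapping groups, and without WT replicates 3 and 4 Pcna was 0.032 and Uhrf2 -0.044.

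Of 10 partners of de novo methylation in germ cells 7 were measured, 5 with lower and 2 with higher means and a median of -0.20, which was 0.0025 without WT replicates 3 and 4. Morc1, which represses transposons in male germ cells, had -2.90, -1.13, 0.12 and 0.30 in WT and -2.32, -2.82, -1.23 and -0.88 in Glis3KO2. Its WT arrays spanned more than the genotypes differed (-0.91, SE 0.70), and without WT replicates 3 and 4 it had 0.20. Piwil4, Spocd1 and Dnmt3c were not analysed here.

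The 18 factors of base excision and other removal split into 10 with lower and 8 with higher means, with a median of -0.12, which was -0.078 without WT replicates 3 and 4. Mbd4, the other glycosylase of CpG mismatches, had -0.13 (SE 0.20), and Apex1, the endonuclease that acts after it, -0.22 (SE 0.30). Dppa3, which protects methylation in the zygote and binds Uhrf1, had -0.86 (SE 0.71) and was well above background on 2 of 4 arrays in each group. These were -0.073, 0.28 and -0.55 without WT replicates 3 and 4. A further 3 genes had an unadjusted p under 0.05 and are named after their values were seen: Parp1, which signals strand breaks, with -0.88 (SE 0.30), Lig3, the ligase that seals the repaired strand, with -0.87 (SE 0.21), and Neil3, a glycosylase of oxidised bases, with 0.77. None passed, and Parp1 was -0.45 without WT replicates 3 and 4, where Lig3 was -0.78. Lig3 has 2 kept probes, and the mean over both gave -0.48.

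Of 9 readers of CpG, 4 had lower and 5 higher means, with a median of 0.010, which was -0.18 with normexp and the 75th percentile and -0.13 without WT replicates 3 and 4. Kdm2b, which binds unmethylated CpG and brings Polycomb proteins there, was the one with an unadjusted p under 0.05, at -0.84, and had -0.31 without those arrays; it too was named after its values were seen. The 3 genes of the methyl donor cycle had a median of 0.046, with Mat2a, which makes the methyl donor S-adenosylmethionine, at -0.015 (SE 0.22). That median was 0.34 without WT replicates 3 and 4, with 3 of 3 higher and Mat2a at 0.14, and it was 0.19 with normexp and the 75th percentile.

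Germ cell genes whose promoters are methylated in somatic cells were the list of partners with the lowest median, -0.65, and 13 of the 13 measured, of 15 listed, had lower means (12 with quantile normalization). Without WT replicates 3 and 4 its median was 0.045, with 6 lower and 7 higher. Ddx4, an RNA helicase of germ cells, had 1.80, 2.22, 3.48 and 4.17 in WT and 1.97, 1.84, 2.02 and 2.07 in Glis3KO2. WT replicates 3 and 4 alone stood above the rest, and the difference of -0.94 (SE 0.47) was -0.035 without them. Dazl, a germ cell translation factor, had -0.31 (SE 0.46), and 0.53 without those arrays. Tdrd1, of the piRNA pathway, named after its values were seen, was the one with an unadjusted p under 0.05, at -1.09, and had -0.25 without them. Several of these genes are also germ cell markers, so the list moves with the germ cell list above.

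**Figure D4:**
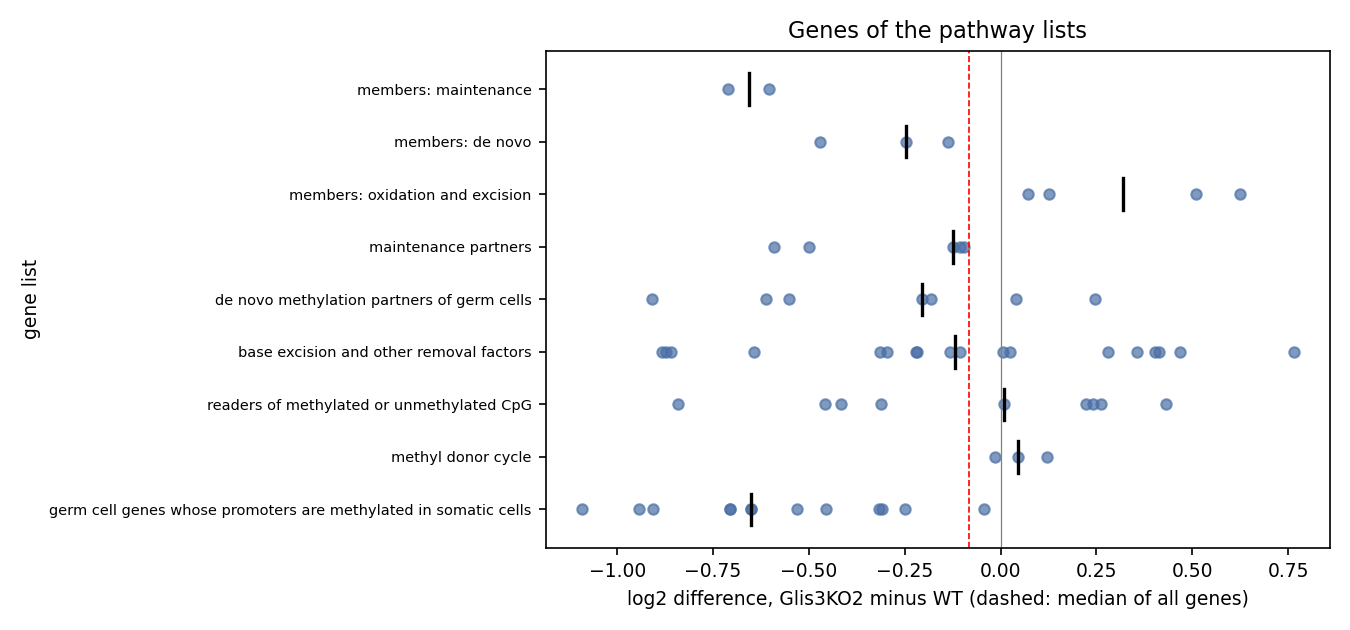
Log2 difference (Glis3KO2 minus WT) of each measured gene of the members and of the 6 lists of other genes, with the list's median as a bar and the median of all 17513 genes (-0.084) as a dashed line. Of the 6 lists of other genes, germ cell genes with methylated promoters have the lowest median, -0.65, and the others lie between -0.20 and 0.046; without WT replicates 3 and 4 that median is 0.045.

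The labelled cell type was checked against its markers. Of 12 genes of undifferentiated spermatogonia 11 had lower means in Glis3KO2, with a median of -0.80. No list had a marker with a probe below background on every array. Since 86.0% to 90.3% of all spots were well above background, this does not show which cell types were present. The 6 smooth muscle genes (median 1.12), the 8 macrophage genes (0.58) and the 6 T lymphocyte genes (0.16) all had higher means, the T lymphocyte genes splitting 3 to 3 and 7 of the 8 macrophage genes being higher under a normexp setting each. Lower means were seen for 7 of 9 Sertoli genes (-0.27), and for 4 of the 5 measured Leydig genes (-0.16), and the 6 endothelial genes split evenly (0.13). Without WT replicates 3 and 4 the medians of smooth muscle, macrophage, T lymphocyte and Sertoli genes were 0.48, -0.19, -0.26 and 0.31. That of spermatogonial genes was -0.20, with 9 lower and 3 higher. The Leydig median was then -0.58, with 5 of 5 lower, and the endothelial median -0.31, which was -0.59 with normexp and the 75th percentile. All of these had 0 genes called by limma, and their part in the values of the enzymes was not tested.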

How the data were processed

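RNA of the 8 samples was amplified and labelled with Cy3, per the labels' protocols. The authors deposited scanner output whose headers name Agilent Feature Extraction 12.0.0.7 and whose processed intensity is linear, background-subtracted and detrended within each array, with flags (another unit, not a level) for spots that are well above background or outliers. The deposited value table equalled that intensity on 100% of spots (tolerance 1e-06). Probes were named through RefSeq accessions in a GRCm38.p6 gene table: 28223 of 41174 had 1 gene, 0 several and 12951 none. The headers place the array's annotation on mm9, and no coordinates of probes are given. Log2 intensity minus each array's 75th percentile was fitted in R 4.3.3 with limma 3.58.1 (lmFit, eBayes, genotype only, Benjamini-Hochberg over all features, threshold 0.05) for probes that 4 or more of the 8 arrays measured well above background. The brightest kept probe stood for a gene in gene counts and lists (6362 genes had several). Between 73 and 109 outlier spots per array were left out, and no member spot was saturated. The number of arrays limits the precision.

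The members and lists were chosen with earlier results of these data known. Named were all members, a set list of 13 pathway and label genes (1 more is not reported here), and the 2 genes most alike each member. The pipeline was run on simulated data with independent noise for each probe and array. These lack the shifts shared across probes that set WT replicates 3 and 4 apart, so they check the calculation only. Same-numbered samples' deviations correlated at r = 0.13, 0.27, 0.13 and 0.13 across genes, all over 0.1, so the labels' numbers were treated as pairs beside the unblocked fit. Differently numbered samples had r from -0.19 to 0.12. WT 3 with Glis3KO2 4 (0.12) and WT 4 with Glis3KO2 3 (0.090) were near the same-numbered values. The correlations thus do not single out the numbered pairs among replicates 3 and 4. The sources used here do not say whether the numbers mark shared litters. Alternatives were 2 normexp background corrections (offset 50, on the median spot signal, since a mean spot signal was not used here), other scalings, filters, probe rules, spread models, blocks, a threshold of 0.10, each array left out, and, chosen after seeing the data, WT replicates 3 and 4 left out together.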

Additional observations from a re-analysis of the deposited data

Results flagged for a closer look

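In 2 of 66 groups of 4 arrays, 1 array lay far from the other 3 (its gap over the group's range was above Dixon's 95% critical value); chance gives about 1 in 20. Dnmt1 in Glis3KO2 replicate 4 was at -0.74, with the other 3 arrays between -0.42 and -0.37 (ratio 0.847). Dnmt3l in Glis3KO2 replicate 2 was at -2.61, with the others between -1.21 and -1.09 (ratio 0.919), and without it the Dnmt3l difference was 0.12.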

How the results depend on the processing

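No member probe passed under any alternative that was tested. Of 352 values compared with the main fit, 16 changed sign. These include the values within 1 slide, which had no test and were compared for direction and size only. Dnmt1 and Uhrf1 probe 1 were lower in 22 of 22 alternatives each, but most of these could not have changed the sign. Their groups did not overlap, so leaving out arrays, taking 1 slide alone or weighting arrays had to keep it. The filters, blocks and spread models left the difference itself unchanged. Dnmt1 was between -0.85 and -0.55 with 1 array left out and between -0.83 and -0.34 otherwise. With the replicate block 0 member probes and 0 genes were called, the member median was -0.14, 3 member probes had an unadjusted p under 0.05, and no call changed. Without WT replicate 3, or without WT replicate 4, 0 member probes did, and with array weights 5 did. The counts over all features moved with these settings too, so the member counts alone are no result about the members. Over all 36429 probes the count was 2332 in the main fit. It ranged from 1386 to 4240 with 1 array left out and from 1653 to 4101 otherwise. Genes at an unadjusted p under 0.05 numbered from 668 (without WT replicate 3) to 2398 (without WT replicate 2), against 1208 in the main fit. They were 771 without WT replicates 3 and 4, 1880 with the replicate block and 2309 with array weights. Genes called were 1 with quantile normalization and 1 at a threshold of 0.10, both times Gm16702, and probes called were 0 to 1 with 1 array left out, the 1 being a Ric3 probe without Glis3KO2 replicate 3 (both named after their values were seen). With the mean over kept probes of a gene, the member median was 0.13, Dnmt3a 0.14 and Uhrf2 0.043. Normexp with the 75th percentile moved the median of all genes to -0.23, by -0.15, and gave Dnmt3a probe 1 0.12, Tdg probe 1 -0.051, Tet3 probe 3 -0.58, Apex1 0.0096, Mat2a 0.14, Pcna 0.13 and Uhrf2 0.12. Quantile normalization gave Mat2a 0.014, array weights Dnmt3a probe 2 -0.026 and Tdg probe 1 -0.015, and slide 2 alone Tet1 -0.51 and Tet3 probe 3 -0.086. Without WT replicates 3 and 4, signs changed for Apex1 (0.28), Dazl (0.53), Hells (0.097), Mat2a (0.14), Morc1 (0.20), Pcna (0.032), Tet1 (-0.24), Tet3 probe 2 (-0.070) and Uhrf1 probe 2 (0.010). With 1 array left out, sign changes came at Apex1 (-0.42 to 0.0035), Dazl (-0.67 to 0.045), Dnmt3a probe 2 (-0.0082 to 0.19), Dnmt3l (-0.39 to 0.12), Mat2a (-0.16 to 0.074), Pcna (-0.23 to 0.053), Tdg probe 1 (-0.11 to 0.22), Tet1 (-0.12 to 0.40) and Uhrf2 (-0.25 to 0.016). The cause of these changes was not tested. With 4 arrays a group, 95% intervals reached beyond 1 log2 unit on at least 1 side at 9 of the 16 member probes.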
